A study of Mus musculus with 31 samples.

Results

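The genes described here are 8 members of the Ikaros zinc-finger family (Ikzf1 to Ikzf5) and of the Pbx homeobox family (Pbx2 to Pbx4). They were chosen by symbol, and all 8 were present among the 41255 gene symbols of both tables analysed, 5 from the Ikaros family and 3 from the Pbx family. Total mRNA and polysomal RNA had been sequenced from Ba/F3, an interleukin 3 dependent line of mouse lymphoid cells. RPL10 belongs to the large subunit of the ribosome, and its R98S mutation, which replaces an arginine with a serine, recurs in T-cell leukemia of the acute lymphoblastic type. In every clone of both genotypes endogenous Rpl10 had been lowered with an shRNA and human RPL10 was expressed from a retrovirus, WT in clones 28, 29 and 36 and R98S in clones 11, 13 and 35, each grown from a single cell. Total mRNA came from 9 R98S and 8 WT libraries, polysomal RNA (gradient fractions in which a transcript carries 2 ribosomes or more) from 8 R98S and 6 WT libraries, and 14 cultures, 8 R98S and 6 WT, had both.

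Ikaros family proteins bind DNA through zinc fingers near the amino terminus and pair with one another through zinc fingers at the carboxyl terminus. Ikzf1 (Ikaros), Ikzf2 (Helios) and Ikzf3 (Aiolos) are regulators of lymphoid development, Ikzf1 is a tumour suppressor in acute lymphoblastic leukemia, and Ikzf4 (Eos) and Ikzf5 (Pegasus) are the less studied members. Pbx proteins are TALE-class homeodomain factors that bind DNA together with Hox and Meis proteins and have a place in leukemia through their partnership with both. The question asked of the members was how abundant each was in these cells, and whether R98S cells differed from WT cells in its total mRNA, in its polysomal RNA and in the ratio of the 2.

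Members of each family share domains, so the sequences were first compared for stretches through which reads of one gene could be counted for another. No window of 50 bases in the transcripts of a member recurred in another member (GENCODE M21, mm10). The longest stretches that the coding sequences of a pair of members had in common are printed for 4 pairs, all in lower case because no part of them stands out, and each lies within a single exon of both genes.
Ikzf1 and Ikzf2: gagaagcccttcaaatg
Ikzf1 and Ikzf3: gatccctttgagtgtaacatgtgtgg
Pbx2 and Pbx4: gaccagagcctggacgaggc
Pbx3 and Pbx4: aactggtttggcaacaaa
The 17 bases that Ikzf1 had in common with Ikzf2 (chr11:11754093-11754109 in Ikzf1) encode the linker motif found between zinc fingers, and the 26 bases in common with Ikzf3 (chr11:11769483-11769508) lie in the carboxyl-terminal fingers. The 18 bases common to Pbx3 and Pbx4 (chr2:34178319-34178336 in Pbx3) encode part of the DNA recognition helix of the homeodomain, and the 20 bases common to Pbx2 and Pbx4 lie at chr17:34592746-34592765 in Pbx2.

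Ikzf1 lies at chr11:11685003-11772926 on the plus strand, Ikzf2 at chr1:69531214-69687245, Ikzf3 at chr11:98464902-98546031, Ikzf4 at chr10:128630843-128645991 and Ikzf5 at chr7:131388652-131410521, the last 4 on the minus strand. Pbx2 lies at chr17:34591266-34597400 and Pbx4 at chr8:69832491-69872292 on the plus strand, and Pbx3 at chr2:34171457-34373142 on the minus strand. Ikzf5 is the member whose counts are least certain, since 81.3% of its exon bases are also exons of Pstk, which is read from the opposite strand and encodes the kinase of the selenocysteine pathway. The library kit kept strand, but whether the counting used it is not given in the sources used here, so the part of Pstk in the Ikzf5 values was not tested. Of the other members, Pbx2 overlapped Gpsm3 on the same strand over 6.24% of its exon bases, and Ikzf2 and Ikzf4 overlapped other genes over 1.24% and 0.617%.

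The RefSeq table of promoters (GRCm38.p6) held 4 of the 8 members, namely Ikzf1 with 2 starts, Ikzf5, Pbx2 and Pbx4. The 250 bases before each start of Ikzf1, the member that was lower in R98S total mRNA, and before that of Ikzf5 are printed 5′ to 3′ on the strand of the gene, with the core letters of the Ikaros site (GGGAA, or TTCCC where it is on the other strand) in capitals.
Ikzf1 upstream start: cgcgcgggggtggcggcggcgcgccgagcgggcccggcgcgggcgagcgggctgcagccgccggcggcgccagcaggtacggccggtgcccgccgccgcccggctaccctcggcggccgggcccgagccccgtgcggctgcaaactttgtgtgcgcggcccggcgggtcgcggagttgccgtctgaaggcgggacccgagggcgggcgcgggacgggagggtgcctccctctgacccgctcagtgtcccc
Ikzf1 downstream start: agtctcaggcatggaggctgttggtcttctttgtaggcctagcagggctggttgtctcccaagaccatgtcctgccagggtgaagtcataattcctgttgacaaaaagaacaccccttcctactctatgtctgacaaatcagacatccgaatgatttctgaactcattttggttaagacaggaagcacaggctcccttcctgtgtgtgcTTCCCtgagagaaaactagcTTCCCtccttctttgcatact
Ikzf5 start: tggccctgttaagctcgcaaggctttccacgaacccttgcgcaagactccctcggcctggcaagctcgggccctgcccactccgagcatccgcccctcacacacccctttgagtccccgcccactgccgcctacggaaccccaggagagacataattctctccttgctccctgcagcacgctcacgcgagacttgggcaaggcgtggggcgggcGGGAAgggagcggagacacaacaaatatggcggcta
The upstream window of Ikzf1 (chr11:11685675-11685924) held no match, and the downstream window (chr11:11689927-11690176) held 2, where 56.2% of all 32851 windows of this length held at least 1 and 21.2% held 2 or more. Ikzf5 (chr7:131410479-131410728), Pbx2 and Pbx4 held 1 each. The composite Pbx-Hox letters TGATTNAT, present on either strand in 2.82% of the windows, were in none of the 5. A match is only a run of letters, and no binding was measured.

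Reads per library ranged from 8831180 to 22059792. Replicate numbers 1 to 3 are shared across the clones, and one WT library, clone 36 with number 1 in total mRNA, was left out by the study because it grouped with the R98S libraries, so the separation of the genotypes is conditional on that choice. Among the libraries used, the total mRNA libraries of R98S clones 13 and 35 with number 2 stood apart, lying 37.7% and 36.1% of the way from the R98S to the WT mean over the genes called different, where the other R98S libraries lay between -17.1% and 3.38%. Rpl10 itself did not pass the test in total mRNA (log2 fold change -0.08, adjusted p = 0.885 with limma) and was lower in polysomal RNA of R98S cells (-1.20, adjusted p = 0.0490), but it can take up reads from the human cDNA, so that it does not check the labels. Of the B cell progenitor markers, Cd79a, Cd79b and Ptprc were present. Cd79b was higher in R98S total mRNA by 0.87 (adjusted p = 0.00667 with limma) and Ptprc was at -0.48 (adjusted p = 0.0646). Pax5, Il7r and Cd93 were at 0 reads in every total mRNA library, and Ebf1, Rag1 and Rag2 averaged under 1 normalized count. The interleukin 3 receptor subunit Csf2rb reached 119306 and, like Csf2rb2, was higher in R98S total mRNA (adjusted p = 1.78e-05 and 1.65e-05 with limma). Of the same list Il3ra (0.12, adjusted p = 0.690), Myb (0.32, adjusted p = 0.525) and Gata2 (-0.21, adjusted p = 0.226) did not pass the test. Kit averaged under 1 normalized count. Csf2rb and Csf2rb2 made up most of the summed level of their list, with means of 94858 and 70968 in R98S and 41121 and 30587 in WT. Summed marker levels of R98S and WT libraries were 133441 to 238185 and 72643 to 125228 for the interleukin 3 dependent progenitor list and 219.5 to 3825 and 117.9 to 543.4 for the myeloid and mast cell list. They were 82.7 to 155.2 and 38.4 to 244.9 for the T cell list, 4226 to 6872 and 4554 to 9718 for the B cell list and 2004 to 4886 and 2488 to 7507 for the erythroid list. Single markers of one list could move in opposite directions, as Cd3d (1.85 in total mRNA, adjusted p = 0.000221 with limma) and Cd3g (-3.06, adjusted p = 0.00887) did among T cell genes and Cpa3 (3.20, adjusted p = 0.000811) and Lyz2 (-2.66, adjusted p = 0.0132) among myeloid and mast cell genes. The globin gene Hba-a1 was lower (-3.41, adjusted p = 0.000484). Cd3g and Lyz2 passed the filter on low values only through the WT libraries. The part of these cell type markers in the results was not tested.

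Levels of the members were compared as normalized counts per kb of exon, since longer genes collect more reads. In total mRNA the order by mean over 17 libraries was Ikzf2 with 498 ± 179 (SD), Pbx2 with 287 ± 23.8, Ikzf5 with 87.1 ± 16.2, Pbx4 with 57.5 ± 24.4, Pbx3 with 55.1 ± 11.3, Ikzf4 with 17.9 ± 3.36 and Ikzf1 with 8.73 ± 8.83. Helios was thus the main Ikaros family transcript of these cells, and Ikaros itself had the lowest mean of the 7 members that had reads in most libraries. In the R98S libraries Ikzf4 was above Ikzf1 in 9 of 9. In WT Ikzf4 was above Ikzf1 in 4 of 8, with means of 18.8 ± 3.42 and 14.8 ± 9.24 per kb. The step from Pbx2 to Ikzf5 and the step from Pbx3 to Ikzf4 held in 17 of 17 libraries, and Ikzf2 was above Pbx2 in 14. Pbx4 and Pbx3 did not differ beyond their spread, with Pbx4 above Pbx3 in 7 of 17 libraries. The place of Ikzf5 rested on the length used, because with the longest transcript in place of all exons Pbx3 came above Ikzf5, and Ikzf5 above Pbx4.

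Polysomal RNA kept most of that order over 14 libraries, with Ikzf2 at 287 ± 141 per kb, Pbx2 at 219 ± 50.2, Ikzf5 at 80.1 ± 18.2, Pbx3 at 48.0 ± 13.7, Pbx4 at 26.5 ± 8.62, Ikzf4 at 13.6 ± 5.73 and Ikzf1 at 2.53 ± 3.62. Here Pbx3 was above Pbx4 in 13 of 14 libraries, and Ikzf2 was above Pbx2 in only 9. The top rank differed by genotype, since Ikzf2 was above Pbx2 in 8 of 8 R98S libraries (means of 382 and 226 per kb) and in 1 of 6 WT libraries (160 and 210 per kb). The tables were normalized separately, so levels are not set across them. Ikzf3, the gene for Aiolos, had 5 reads in all over 17 total mRNA libraries and 1 read over 14 polysomal libraries. No library had more than 2, under the 3 reads that a count of 0 still allows, and Ikzf3 was not tested.

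**Figure D1:**
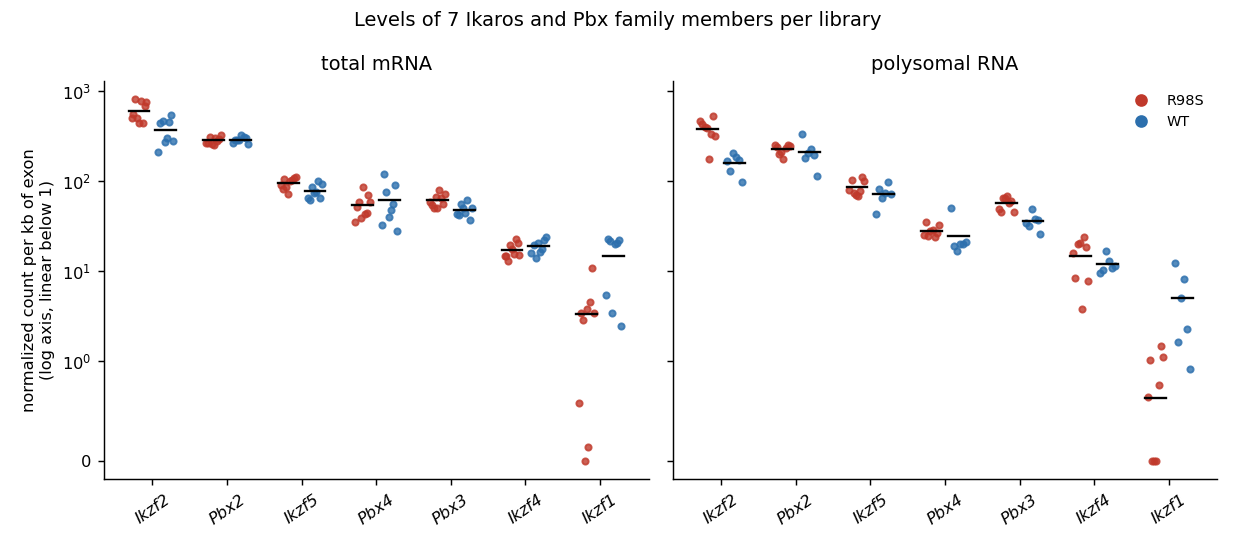
Normalized count per kb of exon on a log axis (linear below 1) for the 7 members with reads in most libraries, in total mRNA and polysomal RNA, with 1 point per library, R98S in red, WT in blue and a black line at each group mean. Ikzf2 and Pbx2 sit at the top in both panels, and the R98S libraries of Ikzf1 at the bottom, reaching 0, while its WT libraries in total mRNA overlap those of Ikzf4.

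For the comparison of R98S with WT, log2(value + 1) was fitted with limma over all genes whose mean normalized count was 10 or more, and a gene was called different at an adjusted p under 0.1. In total mRNA 4 of the 7 members tested were called. Ikzf2, Ikzf5 and Pbx3 were higher and Ikzf1 was lower in R98S cells, while Ikzf4, Pbx2 and Pbx4 did not pass the test. Across all 11133 genes tested 30.3% were called, 14.5% higher and 15.8% lower in R98S cells. In polysomal RNA 3 of 7 were called, Ikzf2 and Pbx3 higher and Ikzf1 lower, against 13.5% of 10707 genes (7.66% higher and 5.87% lower). Polysomal Ikzf1 reached the mean of 10 only through the WT libraries. At a mean of 50 or more, which it did not reach, 2 of 6 members were called, both higher, against 1108 of 9562 genes in either direction. The ratio of polysomal to total RNA gave 0 of 7 members called with limma, where 5 of 10627 genes (0.0470%) were called. An unadjusted p under 0.05 was reached by 0 members and by 687 of all genes. With edgeR 0 members and 1 of all genes were called. With the replicate number as a block the same members were called, while the share of all genes called rose to 38.4% in total mRNA, 30.9% in polysomal RNA and 0.433% for the ratio. The 3 comparisons share libraries and are not independent of one another. Libraries of a clone were treated as replicates, so the p-values measure the spread between libraries, and 3 clones of each genotype stand behind them. In bulk RNA, fewer cells with a transcript and less of it per cell cannot be told apart.

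**Figure D2:**
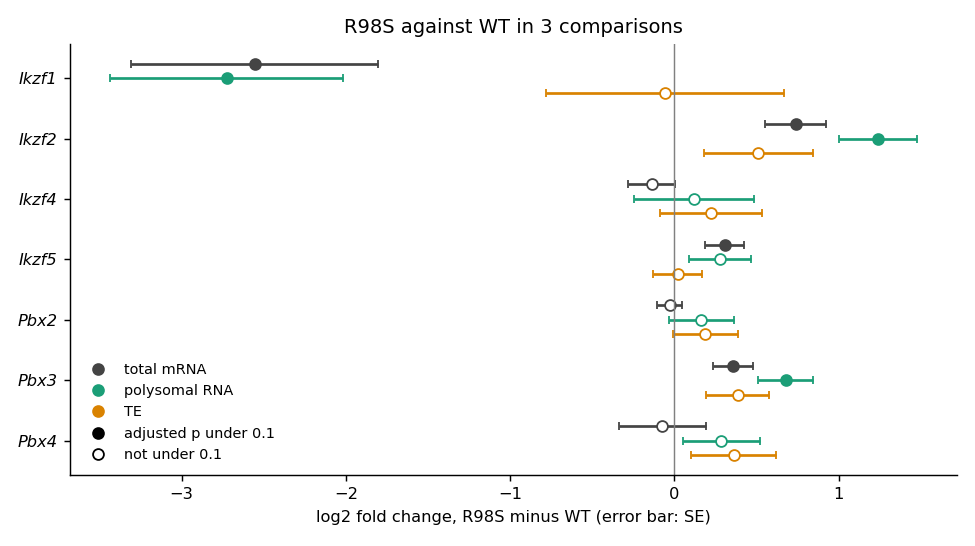
Log2 fold change of R98S against WT with its SE for 7 members in total mRNA (grey), polysomal RNA (green) and the polysomal to total ratio, labelled TE (orange). Filled points have an adjusted p under 0.1. Ikzf1 is the only member with filled points left of 0, and no orange point is filled.

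Ikzf2, which encodes Helios, was higher in R98S cells in both kinds of RNA. In total mRNA its normalized counts ran from 5122 through a median of 6522 to 9480 in the R98S libraries and from 2469 through 4357 to 6311 in the WT libraries. The groups overlapped, with 5 of 9 R98S libraries above every WT library and 4 of 8 WT libraries below every R98S library, but the means of the 3 clones of each genotype did not. The share of all genes whose clone means or libraries lay apart in this way was not counted. For Ikzf2 and the members that follow, such separation is therefore a description and adds no support to a call. The clone means were 7281, 6696 and 7255 for R98S clones 11, 13 and 35 and 4371, 4003 and 4775 for WT clones 28, 29 and 36. R98S exceeded WT by 0.74 on the log2 scale (SE 0.19, adjusted p = 0.00836 with limma). It held its direction in 24 of 24 alternative settings and its call in 22, the exceptions being the fit without number 3 (adjusted p = 0.106) and the fit within number 2 (0.40, adjusted p = 0.360), the number that holds both R98S libraries that stood apart. Without those 2 libraries the value was 0.77 (adjusted p = 0.0101).

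In polysomal RNA the R98S libraries of Ikzf2 ran from 2043 through 4583 to 6207 and the WT libraries from 1130 through 1951 to 2414. All but 1 of the 8 R98S libraries lay above every WT library, the exception being clone 13 with number 3 at 2043. On the log2 scale R98S exceeded WT by 1.24 (SE 0.24, adjusted p = 0.00306 with limma), and the call held in 23 of 23 alternatives. Leaving out the number 2 libraries of R98S clones 13 and 35 gave 1.13 (adjusted p = 0.0168). The difference was present within each number, at 0.93 for number 1 (3 R98S libraries and 1 WT library, with no test), 1.38 for number 2 and 1.17 for number 3.

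Ikzf1, the gene for Ikaros, was lower in R98S cells, at a low level in both genotypes. In R98S total mRNA it had 3.35, 19.8 and 16.5 normalized counts in clone 11 (numbers 1 to 3), 0, 22.1 and 0.778 in clone 13 and 26.2, 63.2 and 20 in clone 35. In WT total mRNA it had 31.4, 132.0 and 124.7 in clone 28, 19.8, 116.7 and 118.4 in clone 29, and 128.5 and 14.1 in clone 36 (numbers 2 and 3). 5 WT libraries stood above 100, 3 stood at 14.1 to 31.4 within the range of the R98S libraries, and the highest R98S library was one of the pair that stood apart. Clone means did not overlap, at 13.2, 7.63 and 36.5 in R98S and 96.0, 84.9 and 71.3 in WT. The fitted difference was -2.56 on the log2 scale (SE 0.75, adjusted p = 0.0202 with limma), and the ratio of the group means, WT over R98S, was 4.48. The direction held in 24 of 24 alternatives and the call in 21, being lost without number 3 (adjusted p = 0.142), within number 1 (adjusted p = 0.276) and within number 3 (adjusted p = 0.207). Its size depended on the R98S clones, at -1.72 without clone 13 (adjusted p = 0.0636), -3.35 without clone 35 (adjusted p = 0.00735) and -3.07 without the pair of R98S libraries that stood apart (adjusted p = 0.00672).

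Polysomal Ikzf1 was at 0 reads in all 3 libraries of R98S clone 13, and at 3.67 and 5.96 normalized counts in clone 11 and 4.39, 8.44 and 6.43 in clone 35. The WT libraries had 71.9 and 9.39 in clone 28, 29.3, 46.8 and 13.2 in clone 29, and 5.29 in clone 36. Of the 6 WT libraries 5 lay above every R98S library. The fitted difference was -2.73 (SE 0.71, adjusted p = 0.0217 with limma), but the gene passed the filter on low values only through the WT libraries, so this call is not independent of the filter. With clone means as the samples the value was -2.28 (adjusted p = 0.179), and the call was also lost without number 1, without number 2, without R98S clone 13, without WT clone 29 and within number 3 (adjusted p between 0.114 and 0.303). The size varied too, at -1.71 without R98S clone 13 and -3.42 without R98S clone 35. It was -1.97 without number 2, -3.98 without number 3, -1.39 within number 3 and -4.26 within number 2.

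The WT values of Ikzf1 were spread over the replicate numbers. Total mRNA of the WT libraries was 19.8 and 31.4 for number 1, 116.7 to 132.0 for number 2 and 14.1 to 124.7 for number 3. Between numbers Ikzf1 was not called in total mRNA (adjusted p of 0.386 for number 3 against 1 and 0.221 against 2 with limma) or in polysomal RNA (0.634 and 0.225). The log2 ratio of polysomal to total RNA, which compares cultures and not the levels of the 2 tables, was -3.60 and -3.07 in the number 3 cultures of WT clones 28 and 29, and 0.54 in WT clone 29 with number 1. The ratio is weakly defined in R98S clone 13, whose 3 cultures had 0 polysomal reads, so that their log2 ratios of 0, -4.53 and -0.83 were set by the pseudocount. With them the ratio was -1.65 ± 1.54 (SD) in 8 R98S cultures and -1.59 ± 1.52 in 6 WT cultures (difference -0.06, 95% interval -1.59 to 1.48, adjusted p = 0.992 with limma). Without clone 13 the difference was 0.03 (adjusted p = 0.998). Number 2 cultures had ratios of -4.53 and -2.77 in R98S and -0.87 and -1.30 in WT. Those of number 3 had -1.50 to -0.83 in R98S and -3.60 to -1.27 in WT, given as values only since clone 13 is in both.

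**Figure D3:**
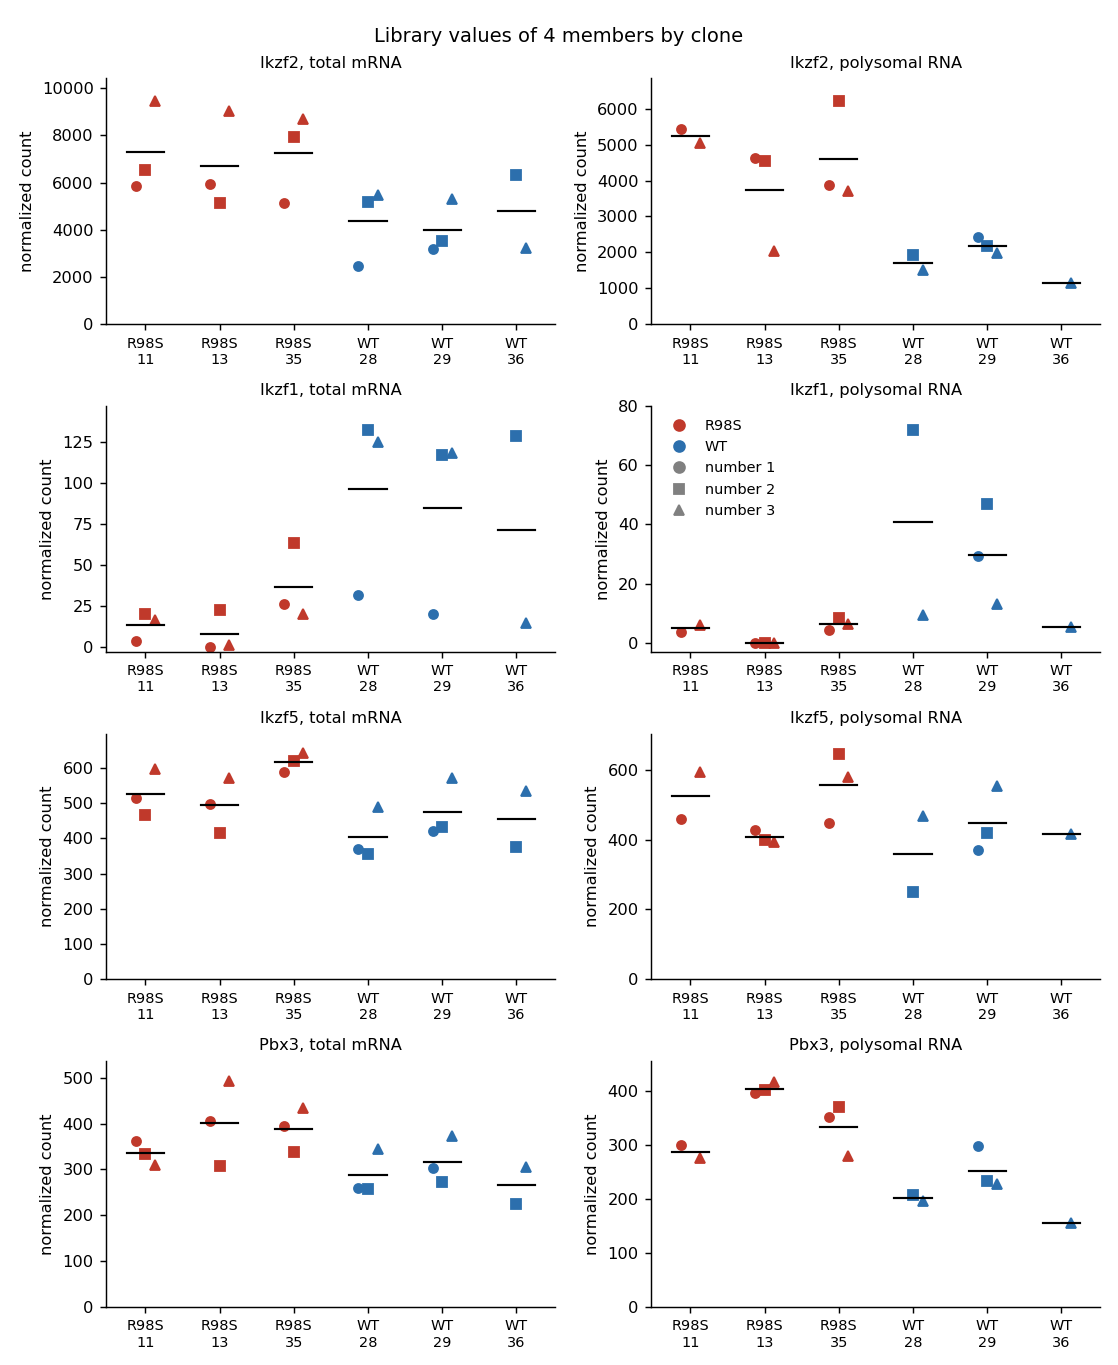
Normalized counts of Ikzf2, Ikzf1, Ikzf5 and Pbx3 per library, by clone, in total mRNA (left) and polysomal RNA (right). Symbols mark the replicate number, red is R98S, blue is WT and the black line is the clone mean. The Ikzf2 clone means of R98S lie above those of WT in both columns, and the Ikzf1 values of R98S clone 13 on polysomes are all 0.

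**Figure D4:**
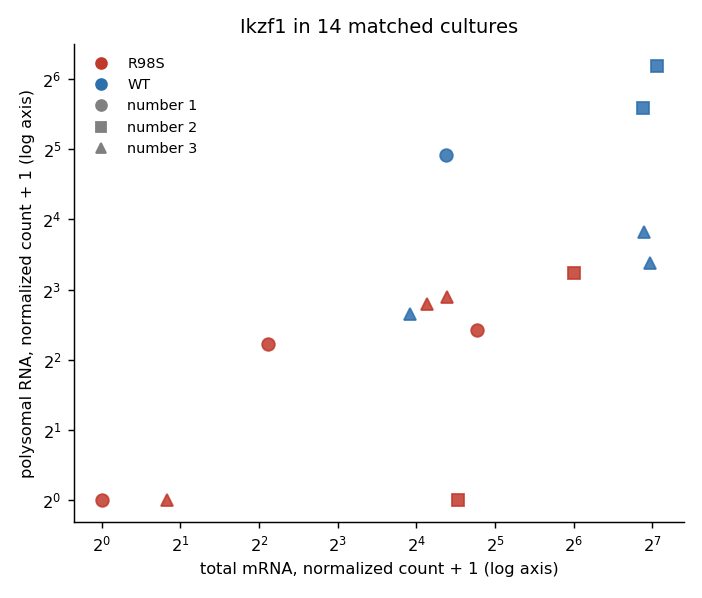
Ikzf1 in 14 matched cultures, with total mRNA on the horizontal axis and polysomal RNA on the vertical axis, both as normalized count + 1 on log axes, each normalized within its own table. The WT cultures of clones 28 and 29 with number 3 combine high total with low polysomal values, at log2 ratios of -3.60 and -3.07.

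Pbx3, a Pbx member known as a partner of Hoxa9 and Meis1 in leukemia, was higher in R98S cells in both kinds of RNA. In total mRNA the R98S libraries ran from 306.9 through 362.5 to 492.7 and the WT libraries from 224.8 through 288.2 to 372.6. The groups overlapped, with 4 of 9 R98S libraries above every WT library and 6 of 8 WT libraries below every R98S library, while the clone means did not, at 335.0, 401.8 and 389.1 against 287.2, 316.3 and 265.2. R98S exceeded WT by 0.36 on the log2 scale (SE 0.12, adjusted p = 0.0396 with limma), higher in 24 of 24 alternatives and called in 16. The call was lost without number 1, without number 2, without R98S clone 35, without WT clone 28, without WT clone 36 and within each number alone (adjusted p between 0.101 and 0.543).

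On polysomes the R98S libraries had 276.4 to 416.5 normalized counts of Pbx3 with a median of 361.7, and the WT libraries 156.0 to 297.2 with a median of 217.4. WT clone 29 with number 1 was the single WT library inside the R98S range. The fitted log2 difference was 0.68 (SE 0.17, adjusted p = 0.0173 with limma), called in 19 of 23 alternatives, with the call lost for clone means (0.76, adjusted p = 0.137), without number 2, without R98S clone 13 and within number 2 (adjusted p between 0.121 and 0.366). The R98S clones were ordered alike in both kinds of RNA, clone 13 highest and clone 11 lowest. Of the members, Pbx3 came nearest to a difference in the ratio of polysomal to total RNA, at -0.12 ± 0.30 in R98S and -0.51 ± 0.37 in WT cultures. That difference of 0.38 (95% interval -0.02 to 0.79) had an unadjusted p of 0.0637 and an adjusted p of 0.814 with limma, and 0.0199 and 0.326 with the replicate block.

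Ikzf5, the gene for Pegasus, had 415.6 to 644.0 normalized counts in R98S total mRNA with a median of 570.6, and 354.9 to 572.3 with a median of 427.0 in WT. The fitted log2 difference was 0.31 (SE 0.12, adjusted p = 0.0689 with limma), and clone means did not overlap, at 525.8, 494.8 and 618.4 against 405.4, 475.4 and 455.1. This was the least stable of the 4 calls, holding in 14 of 24 alternatives, and it was lost for clone means (adjusted p = 0.124), without a filter on low values (adjusted p = 0.109), within each number and in 5 of the fits that left out a number or clone (adjusted p between 0.109 and 0.523 over these). Pstk, its partner on the other strand, named after its values were seen, was also higher in R98S total mRNA (log2 fold change 0.43, SE 0.12, adjusted p = 0.0165 with limma). Pstk did not pass the test in polysomal RNA (0.07, SE 0.39, adjusted p = 0.951 with limma) or for the ratio (-0.42, adjusted p = 0.935). Its values correlated with those of Ikzf5 with r = 0.38 over 17 total mRNA and 0.56 over 14 polysomal libraries. In polysomal RNA Ikzf5 ran from 393.7 to 644.2 in R98S libraries and 248.9 to 552.8 in WT libraries. It did not pass the test (log2 fold change 0.28, SE 0.19, adjusted p = 0.456 with limma, 95% interval -0.12 to 0.68). Without WT clone 28 of number 2, a fit added after the values were seen, its log2 fold change was 0.14 (adjusted p = 0.675 with limma).

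The other 3 members did not pass the test in either kind of RNA with all libraries in the fit. Pbx2, a widely expressed Pbx gene, was the steadiest, with 927.7 to 1190 normalized counts in R98S and 930.8 to 1198 in WT total mRNA (log2 fold change -0.03, 95% interval -0.19 to 0.13, adjusted p = 0.834 with limma). Its polysomal values were 633.9 to 929.3 in R98S and 416.4 to 1220 in WT, with the highest and lowest both in WT (0.17, 95% interval -0.26 to 0.59). Ikzf4, the gene for Eos, ran from 78.5 to 137.0 in R98S libraries and 84.2 to 143.3 in WT libraries of total mRNA (-0.14, 95% interval -0.44 to 0.16). On polysomes its R98S libraries spread from 22.8 to 141.9 around WT libraries of 56.6 to 100.9 (0.12, 95% interval -0.66 to 0.90). Pbx4, a Pbx gene with a narrow tissue range, ran from 77.0 to 191.0 in R98S libraries and 61.3 to 267.4 in WT libraries of total mRNA (-0.07, 95% interval -0.63 to 0.48). Its polysomal values were 52.7 to 77.5 in R98S, and in WT 5 of 6 libraries lay below all of these at 37.0 to 46.3 while clone 28 with number 2 reached 111.8 (0.29, 95% interval -0.21 to 0.79, adjusted p = 0.558 with limma). Without that WT library, a fit added after the values were seen, Pbx4 was called higher in R98S polysomal RNA (0.51, SE 0.16, adjusted p = 0.0592 with limma).

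The ratio of polysomal to total RNA differed between replicate numbers for several members. Between genotypes, Ikzf2 had a log2 ratio of -0.71 ± 0.69 (SD) in 8 R98S and -1.22 ± 0.56 in 6 WT cultures, a difference of 0.51 that did not pass the test (95% interval -0.18 to 1.21, adjusted p = 0.881 with limma). Between numbers, its log2 ratio was between -0.40 and -0.11 in the 4 cultures of number 1, between -1.43 and -0.18 for number 2, and between -2.14 and -0.91 for number 3. Cultures of number 3 were below those of number 1 by -1.11 (adjusted p = 0.00197 with limma) and below those of number 2 by -0.85 (adjusted p = 0.00995). Such shifts were widespread, since 63.5% of all genes were called between numbers 3 and 1 and 60.7% between numbers 3 and 2, in both directions around medians of -0.06 and -0.03. Ikzf4 moved the same way (-0.91, adjusted p = 0.0178, and -0.63, adjusted p = 0.0786), as did Pbx3 (-0.37, adjusted p = 0.0649, and -0.58, adjusted p = 0.00683). Ikzf1, with its cultures at 0 polysomal reads included, was called against number 1 alone (-1.62, adjusted p = 0.0895) and Pbx2 against number 2 alone (-0.47, adjusted p = 0.0432), and Ikzf5 and Pbx4 were called in neither. No member passed the test of a genotype difference that varied with the number, which rests on few libraries of each number. The genotype by number term had adjusted p-values of 0.934 to 0.990 in total mRNA, 0.824 to 0.923 in polysomal RNA and 0.260 to 0.759 for the ratio with limma, where 0, 3 and 41 of all genes passed. Its unadjusted p was under 0.05 for polysomal Ikzf4 (0.0173), whose log2 fold change was 0.80 within number 2 and -0.77 within number 3, and for the ratio of Ikzf1 (0.0104), which includes the clone 13 cultures without polysomal reads.

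**Figure D5:**
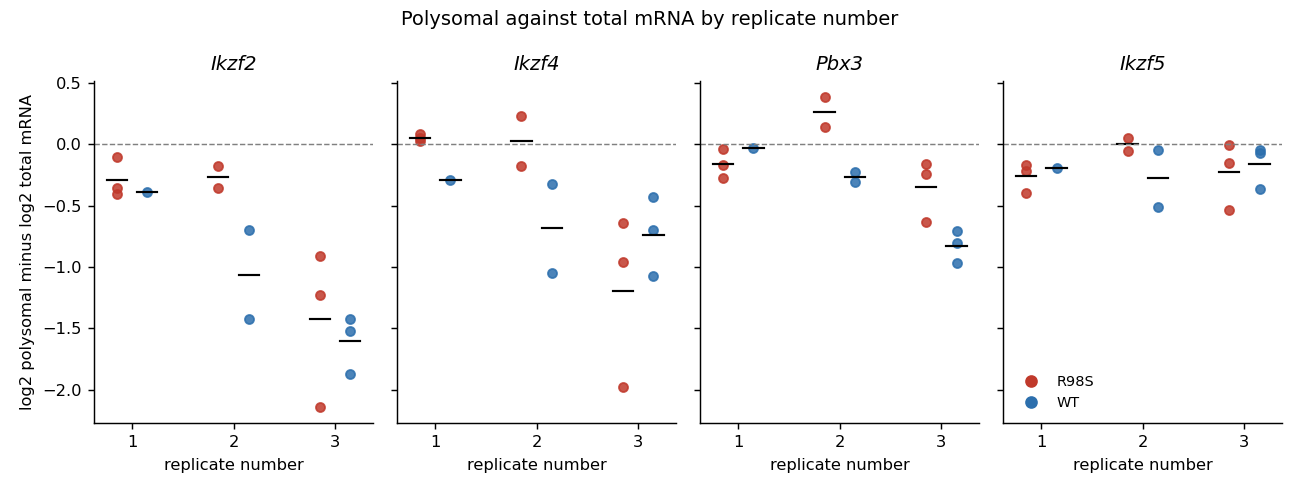
Log2 polysomal minus log2 total mRNA of Ikzf2, Ikzf4, Pbx3 and Ikzf5 per culture, by replicate number, with R98S in red, WT in blue and a black line at each mean. Number 3 cultures of Ikzf2 lie between -2.14 and -0.91, and those of Ikzf5 stay close to the other numbers.

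Within genotypes some members varied together over libraries, which share clones, numbers and depth, so the coefficients are descriptions only. After centring on the genotype means, Ikzf2 and Pbx2 had r = 0.63 over 17 total mRNA libraries and 0.63 over 14 polysomal libraries, and Ikzf1 and Pbx2 had 0.40 and 0.81. Ikzf1 and Pbx4 had r = 0.69 in total mRNA and 0.40 in polysomal RNA. Ikzf5 and Pbx3 had 0.64 in total mRNA but -0.30 in polysomal RNA, and Ikzf2 and Pbx4 had 0.61 and -0.04, so these likenesses were not shared by both kinds of RNA.

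Among 9256 genes whose mean reached 100 normalized counts, those whose total mRNA was most like that of a member over the 17 libraries, genotype differences included, were ranked by Pearson r of log2 values. For Ikzf1 they were Dnajb1, an Hsp40 co-chaperone (0.96), and Zmynd11, a reader of methylated histone H3 (0.92), and for Ikzf2 they were the lipid kinase Pik3c2a (0.92) and the zinc-finger gene Zmym2 (0.90). For Ikzf5 they were Slc35a1, a sialic acid transporter (0.95), and the mRNA capping enzyme Rngtt (0.91), and for Pbx4 Tnrc6b, of the microRNA silencing machinery (0.90), and Ppox, of heme synthesis (0.90). Pbx3 was most like Vps18 (0.85) and the kinase gene Map2k4 (0.85), Ikzf4 most like the small Maf gene Mafg (0.76) and Opa1 (0.74), and Pbx2 most like Dctn6 (0.72) and Wbp1 (0.71). In the polysomal libraries the same pairs had r between -0.35 and 0.84, with 0.40 for both genes of Ikzf1.

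Ikaros proteins repress genes together with the NuRD, Sin3 and CtBP co-repressors, and all 17 genes of a list of these were expressed. In total mRNA 2 rose, 2 fell and 13 did not pass the test, so that 23.5% were called where 30.3% of all genes were, with a median log2 fold change of -0.06 beside 0.00 over all genes tested. The CtBP gene Ctbp2 rose by 0.86 (SE 0.11, adjusted p = 2.66e-05 with limma) and the NuRD helicase gene Chd3 by 0.50 (SE 0.10, adjusted p = 0.00144). The NuRD genes Gatad2b (-0.50, SE 0.15, adjusted p = 0.0271, called in 20 of 24 alternatives) and Mta3 (-0.23, SE 0.08, adjusted p = 0.0513, called in 13 of 24) fell. Mbd2 was called lower as well with the replicate block (-0.20, adjusted p = 0.0785). In polysomal RNA 1 of 17 was called, or 5.88% beside 13.5% of all genes. It was Ctbp2 (0.99, SE 0.14, adjusted p = 0.000210), with a median of -0.03 beside -0.02 over all genes. With the replicate block 2 were higher and 3 lower on polysomes, where 30.9% of all genes were called.

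The partners of Pbx were mostly absent. Of 27 genes listed, which are TALE and Hox genes and the Pbx-interacting protein gene Pbxip1, 17, all of them Hox genes, had 0 reads in every total mRNA library, a count that allows up to 3 reads per library, and 22 averaged under 1 normalized count, among them Hoxa7, Hoxb9, Meis1 and Meis3. The 4 that were tested were Meis2, Pknox1, Tgif1 and Pbxip1, with a median log2 fold change of 0.28 in total mRNA. Meis2, a TALE partner of Pbx, averaged 272.7 ± 64.7 (SD, n = 9) in R98S and 119.1 ± 18.7 (n = 8) in WT total mRNA. It rose by 1.17 on the log2 scale (SE 0.15, adjusted p = 2.24e-05 with limma) and by 0.93 in polysomal RNA (SE 0.26, adjusted p = 0.0328), and it was the only one of the 4 called in either, where 30.3% of all genes were called in total mRNA and 13.5% in polysomal RNA. The total mRNA call held in 24 of 24 alternatives and the polysomal call in 14 of 23 (adjusted p up to 0.199). Pknox1, Tgif1 and Pbxip1 had log2 fold changes of 0.13, 0.27 and 0.29 in total mRNA, and Pbxip1 was called with the replicate block (adjusted p = 0.0872).

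Of 20 genes described elsewhere as Ikaros targets in lymphoid cells, 8 were tested in total mRNA, none rose, 1 fell and 7 did not pass the test, with a median log2 fold change of -0.31 beside 0.00 over all genes. This was 12.5% called where 30.3% of all genes were, or, with the replicate block, 2 of 8 where 38.4% were. Among the 8, Il2ra passed the filter on low values only through the WT libraries (means of 9.98 in R98S and 19.6 in WT). The median of -0.31 includes it. The gene that fell was Ccnd3, for cyclin D3, at 2608 ± 517 in R98S and 4355 ± 767 in WT (-0.74, SE 0.13, adjusted p = 0.000385 with limma). With the replicate block Myc was called lower too (-0.41, adjusted p = 0.0111, against -0.43 and 0.123 without it). 11 of the 20 averaged under 1 normalized count, including the recombination genes Rag1 and Rag2 and the B-lineage gene Igll1. In polysomal RNA limma called 0 of 7 where it called 13.5% of all genes, and the median was -0.10. An unadjusted p under 0.05 was reached by 1 of the 7 and by 2326 of all 10707 genes. With the replicate block 1 was called (30.9% of all genes). Of the 7 targets edgeR called 0 and DESeq2 2, where they called 1450 and 1911 of the 10707 genes. For the polysomal to total ratio limma and edgeR called 0 genes in each of the 3 lists, and the block added no call. An unadjusted p under 0.05 was reached by 1 of 17 co-repressors, 0 of 4 partners and 1 of 7 targets. Of all 10627 genes 687 reached it.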

How the data were processed

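The members and the gene lists used here were chosen with earlier results of these data known. The authors trimmed the first base of each read (seqtk) and discarded rRNA and tRNA reads (Bowtie2), aligned the rest to mm10 with TopHat2 2.0.11, dropped reads of mapping quality under 10 and counted reads on exons. The submitters' processing notes name HTSeq, and the annotation and strand setting are not given in the sources used here. The tables deposited hold 1 signal for each gene, the read count that the authors divided by DESeq2 size factors within each table.

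Here log2(value + 1) of genes with a mean of at least 10 was compared between R98S and WT with limma 3.58.1 (lmFit and eBayes with a variance trend, R 4.3.3). P values were two-sided and adjusted by the Benjamini-Hochberg method over all genes tested, with calls at 0.1. The study used DESeq2 for this comparison. Fold changes of low genes depended on the pseudocount and the test. Ikzf1 in total mRNA was -2.56 with limma, -2.74 with a pseudocount of 0.5 and -1.98 with 5. It was -2.12 with edgeR and -2.16 with DESeq2. In polysomal RNA Ikzf1 was -2.73 with limma, -2.99 with edgeR and -3.01 with DESeq2. The ratio, or translational efficiency (TE), was the log2 polysomal minus the log2 total mRNA value of a culture. Values were whole multiples of a step in each library (100% within 0.01 of a read), and the recovered reads were tested with edgeR 4.0.16 and DESeq2 1.42.0. The scripts were tested on simulated data. The closest pair of libraries of a genotype, polysomal R98S clone 13 with numbers 1 and 2, differed by more than sampling noise, with a chi-square per gene of 4.36. The next pair, polysomal R98S clones 11 and 35 with number 3, had 9.61. Total mRNA of the same clone 13 cultures had 65.0. All libraries were kept and counted as separate cultures, and whether the polysomal libraries of the closest pair are independent was not tested.

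Same-numbered R98S and WT libraries deviated from their group means together, with correlations of 0.62, 0.55 and 0.48 for numbers 1 to 3 in total mRNA. For polysomal RNA they were 0.70, 0.67 and 0.87, and for the ratio 0.67, 0.54 and 0.81, so the numbers pair the samples by the data, with no label that says what they share. The genes named were all 8 members, the 2 genes most like each, the genes called in each list of partners and targets with the smallest adjusted p (up to 4 from the total mRNA and 2 from the polysomal comparison), and Rpl10. Cell type markers, Pstk and the list genes named without a call were chosen after their values were seen. Normalized counts per kb used the union of exons in GENCODE M21 (GRCm38). Alternatives covered scaling, pseudocount, filter, test, unit of replication and libraries left out.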

Additional observations from a re-analysis of the deposited data

Results flagged for a closer look

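The values of each genotype were searched for a single library whose gap to the nearest other was large for the range of its group, in 42 groups of 6 to 9 values on the log2 scale. Chance alone gives about 1 in 20, and 2 were found, which is about that share. Polysomal Ikzf2 in R98S clone 13 with number 3 was low, at 2043 normalized counts where the next lowest of the 8 R98S libraries had 3721. Polysomal Pbx4 in WT clone 28 with number 2 was high, at 111.8 where the other 5 WT libraries had 37.0 to 46.3. Each library was then left out alone, an alternative chosen after seeing the data. Without the first, Ikzf2 stayed called (1.39 on the log2 scale, adjusted p = 0.000233 with limma, against 1.24 with it). Without the second, Pbx4 was called higher in R98S polysomal RNA (0.51, adjusted p = 0.0592, against 0.29 and 0.558 with it), and 4 of 7 members were called where 15.5% of all genes were. Whether anything beyond chance set these libraries apart was not tested.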

How the results depend on the processing

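All calls kept their direction for the members called in total mRNA and in polysomal RNA, under every alternative that gave a value. The replicate block changed no member's call. The number of members called in total mRNA (4) was 1 within number 1, 1 within number 2 and 1 within number 3, and 2 to 4 with a number or clone left out. In polysomal RNA (3) it was 1 with clone means, 4 without WT clone 28 of number 2, where Pbx4 was called (0.51), and 1 to 3 with a number or clone left out. For the ratio it was 0 throughout.

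Over all genes, calls in total mRNA (3369) were 1366, 241 and 1047 within numbers 1, 2 and 3, and 1338 to 3003 with a number or clone left out. Calls in polysomal RNA (1449) were 3307 with the replicate block, 2381 with the block and clone as a random effect, 751 with clone means, 321 and 2234 within numbers 2 and 3, and 608 to 2037 with a number or clone left out. Calls for the ratio (5) were 46 with the replicate block, 77 with the block and clone as a random effect, 2 with TMM scaling, 1 with a pseudocount of 5, 3 without a filter, 1 with a mean of at least 50, 0 with clone means, 109 without WT clone 29 of number 1, 1 within number 2, 1 with edgeR, and 0 to 84 with a number or clone left out. The cause was not tested.

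Members that were not called changed sign in some settings. For the ratio, Ikzf1 (-0.06) was 0.31 with a pseudocount of 5, 0.058 with clone means, 0.61 without the number 2 libraries of R98S clones 13 and 35, 0.37 without WT clone 29 of number 1, -2.56 within number 2, 1.42 within number 3 and -1.36 to 0.87 with a number or clone left out. Ikzf5 (0.02) was -0.041 without those number 2 libraries, -0.069 within number 3, -0.0015 with edgeR and -0.078 to 0.13 with a number or clone left out. Within number 3 the ratio of Ikzf4 was -0.46, and within number 2 those of Pbx2 and Pbx4 were -0.11 and -0.26. In polysomal RNA, Ikzf4 (0.12) was -0.060 with the replicate block, -0.084 with clone as a random effect too, -0.077 without those number 2 libraries, -0.77 within number 3 and -0.14 to 0.61 with a number or clone left out. Within number 2 Pbx2 was -0.28 and Pbx4 -0.23, and with a number or clone left out they were -0.13 to 0.39 and -0.014 to 0.54. In total mRNA, Ikzf4 was 0.051 within number 1, Pbx2 0.15 within number 3, Pbx4 0.11 within numbers 1 and 3, and with a number or clone left out Pbx2 was -0.12 to 0.057 and Pbx4 -0.19 to 0.095.

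Ikzf1 had no value in polysomal RNA or the ratio at a mean of at least 50. Number 1 was not fitted alone there, because it has 1 WT library. With Spearman's rho or the polysomal libraries, the 2 genes most like a member changed in part or in full for 13 of 14 cases. The low counts of Ikzf1 (0 to 132.0) and Ikzf3 limit what can be said of them.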
